A study of Homo sapiens with 6 samples.

Results

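Osteopontin, integrin and focal adhesion genes were read in bulk RNA sequencing of A375 cells, a human melanoma line. They comprise 39 genes of the 58302 Ensembl gene IDs in the deposited tables, chosen by name: SPP1, which encodes osteopontin, its receptor gene CD44, 20 integrin chain genes and 17 genes of the proteins that tie integrins to actin or signal from them. All 39 had an ID in the tables and all 39 received an adjusted p. The 6 libraries were 3 of cells stably carrying an empty vector and 3 of cells stably overexpressing HMGB2 (HMGB2OE), a DNA-bending chromatin protein. Cells of both groups came from A375 and were made by lentiviral transduction. The reporting form of the study calls the 3 replicates of a condition technical, and whether each group was 1 transduced line is not stated. Each p-value is therefore read as measuring the spread between cell pellets. A difference between transductions cannot be told apart from one due to HMGB2.

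Integrins are cell surface receptors, each built of an alpha and a beta chain, that bind matrix proteins outside the cell and recruit talin and kindlin inside it. Vinculin, tensins, paxillin, zyxin and focal adhesion kinase then gather at the same site, the focal adhesion, which anchors actin and starts signals on spreading and movement. Osteopontin is a secreted, acidic phosphoprotein with an arginine-glycine-aspartate (RGD) motif. It binds RGD-binding integrins, the integrins with an ITGA4 or ITGA9 chain, and the hyaluronan receptor CD44, and is known in melanoma as a gene of invasive cells.

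Libraries held between 45925053 and 56755212 reads assigned to genes, enough that every member but ILK and ITGA8 had more than 20 reads in each library. HMGB2 itself, counted with the vector's copy, had normalized counts of 7514 ± 243 (SD, n = 3) in empty vector cells and 15517 ± 1177 (SD, n = 3) in HMGB2OE cells. The 12 melanoma and melanocyte markers summed to between 38869 and 46344 normalized counts in empty vector and between 31588 and 34908 in HMGB2OE libraries. Of the 9 tested, 1 was called lower (log2 fold change -0.69), or 11.1%, beside 2.64% of all genes tested. The other 8 had log2 fold changes above 0, up to 0.42, and none of them was called. The median over the 9 was 0.11. Among the 12, S100B and PRAME were read at 3346 or more normalized counts in every library. MLANA, TYR and DCT, genes of pigment cells, were at 10.8 or below. SOX10, a defining melanoma gene, was listed at 0, as the column used kept none of the 253416 stranded reads listed for it. Stranded reads are the summed columns counted by strand. As the library kit did not mark strand, they can include reads of an overlapping gene, here and below. The 7 leukocyte markers summed to between 499 and 524 normalized counts in empty vector and between 534 and 705 in HMGB2OE libraries, nearly all from LYZ (488 to 701), while PTPRC and TYROBP were at 0 in all 6. The 8 fibroblast and endothelial markers summed to between 3679 and 5632 and between 5197 and 6729, led by COL1A1, and their part in the results was not tested. The third replicate of each group stood apart from replicates 1 and 2. Empty vector replicate 3 was the lowest of its group for 29 of the 39 members (74.4%, against 40.9% of all genes tested), and HMGB2OE replicate 3 for 24 of 39 (61.5%, against 39.3%). A fit with the replicate number as a block was therefore run beside the fit on group alone. It takes same-numbered libraries as pairs, which the values bear out for the third replicates but not for replicates 1 and 2.

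SPP1, ITGA8 and TNS1 were higher in HMGB2OE cells, and ITGB2 and FERMT1 were lower. These 5 members passed DESeq2's Wald test at a Benjamini-Hochberg adjusted p under 0.05, and the other 34 did not. They made up 12.8% of the members, beside 4.94% of all 18836 genes tested. In the 2 directions, 2.29% of all genes tested were called higher and 2.64% lower. Most members lay close to no change: the median log2 fold change over the 39 was -0.01, with 18 above and 21 below 0, and it was 0.00 over all genes tested. Groups did not overlap for 12 of the 39 members (30.8%), beside 21.9% of all genes tested. With the replicate number as a block, 9 of the 37 members with an adjusted p were called (24.3%, beside 12.5% of all genes in that fit). Of these, 4 were higher and 5 lower, beside 6.09% and 6.46% of all genes. SPP1 (adjusted p = 1.93e-26), TNS1 (0.0021), ITGB2 (0.00382) and FERMT1 (8.75e-06) were called in both fits. Blocked values of single members are given below where the call differed.

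**Figure D1:**
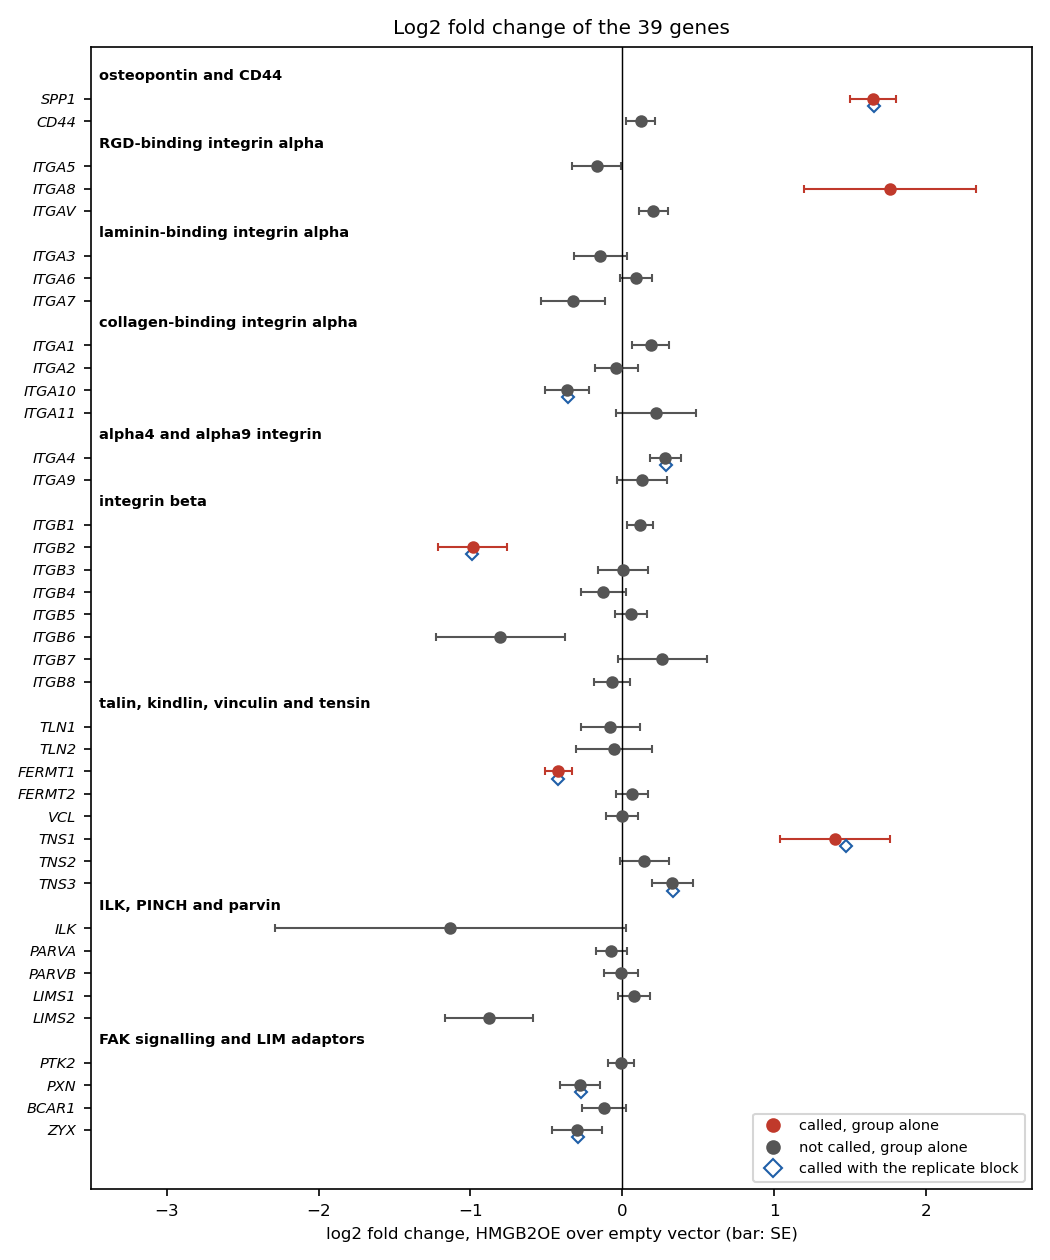
Log2 fold change of HMGB2OE over empty vector (x axis) for each of the 39 genes (y axis, grouped by role), with bars of 1 SE. Red circles mark the 5 genes called in the fit on group alone, grey circles the other 34, and blue diamonds the 9 called with the replicate block. SPP1, ITGA8 and TNS1 lie above 1, ITGB2 lies close to -1, and most other genes lie close to 0.

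SPP1 (ENSG00000118785, chr4:87975667-87983532, plus strand, GRCh38) had normalized counts of 200, 205 and 249 in the empty vector libraries and 627, 701 and 728 in the HMGB2OE libraries. Every HMGB2OE library held more than 2 times the highest empty vector value. The group means were 218 ± 27.0 and 685 ± 52.5 (SD, n = 3 each), a ratio of 3.15. The log2 fold change was 1.65 (SE 0.15, adjusted p from DESeq2 = 1.95e-24), and it was called under every alternative run, including the fit without any 1 library. The study names SPP1 from these same samples, so this call is not independent evidence of its rise. In bulk cells, more cells with SPP1 RNA and more SPP1 RNA per cell cannot be told apart. An antisense RNA, ENSG00000286618, covers 196 exonic bases at the start of SPP1 in GENCODE 44 and is not an ID in the tables. The library kit did not mark strand, so its reads, if any, would count as SPP1.

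The sequence before the start of SPP1 is shown because SPP1 moved most clearly. That of ITGA8 is shown because it was the only integrin chain called higher on group alone. The ITGA8 call rests on few reads and was lost without any 1 library, as given below. Both are from RefSeq (GRCh38.p14), 5′ to 3′ on the strand of the gene, and stop before the first annotated exon base. Both strands were searched for 6 motifs, and capitals mark every match. These were the AP-1 site, spelled TGANTCA, and the RUNX site, spelled TGTGGT, with SOX factors read as ACAANG. The letters CACGTG stood for the E-box bound by MITF. The box bound by TATA-binding protein was spelled TATAAA, and the motif of SP-family factors, called here the GC-rich box, was GGGCGG.
SPP1, chr4:87975464-87975666, plus strand: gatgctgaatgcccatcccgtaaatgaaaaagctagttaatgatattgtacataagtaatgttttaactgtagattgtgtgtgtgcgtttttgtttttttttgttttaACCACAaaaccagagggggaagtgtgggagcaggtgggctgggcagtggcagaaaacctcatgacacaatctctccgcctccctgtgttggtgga
ITGA8, chr10:15719923-15720172, minus strand: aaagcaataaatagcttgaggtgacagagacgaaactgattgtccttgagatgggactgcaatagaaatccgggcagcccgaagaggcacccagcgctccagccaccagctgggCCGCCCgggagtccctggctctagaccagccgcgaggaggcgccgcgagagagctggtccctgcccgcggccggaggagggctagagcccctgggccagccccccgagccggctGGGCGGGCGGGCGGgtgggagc
The SPP1 stretch held 1 RUNX match, on the minus strand at positions -142 to -137 from the RefSeq start, and none of the other letters searched. RUNX letters occurred in 11% of the 35116 windows of 250 bases in RefSeq and in 3 of the 55 windows of the 30 members with any. The ITGA8 stretch held 4 matches to the GC-rich box, 3 of which overlap in a run close to the start. That box occurred in 42.6% of all windows and in 27 of the 55 windows of members (49.1%). TNS1 had 5 windows, and gene counts do not say which start was used, so none is shown. ITGB2 and FERMT1 were among the 9 members for which no window was used here.

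No other gene close to SPP1 was called higher. Of 23 genes within 500 kb, 11 had no reads and 6 were tested. PKD2, which encodes a cation channel of the primary cilium and lies next to SPP1, had means of 2501 and 2608 normalized counts (log2 fold change 0.06, SE 0.09). The drug efflux pump gene ABCG2, PPM1K, HERC6 and the pseudogene HSP90AB3P were likewise not called, with log2 fold changes between -0.03 and 0.29. HERC5, a ubiquitin-like ligase gene at a distance of 474 kb, was lower (log2 fold change -0.50, SE 0.14, adjusted p from DESeq2 = 0.0148, edgeR adjusted p = 0.0585), and it was no longer called once empty vector replicate 1 (0.0892), empty vector replicate 2 (0.214), HMGB2OE replicate 1 (0.276) or HMGB2OE replicate 2 (0.245) was left out. The 4 genes of the phosphoprotein family of SPP1, IBSP, DMP1, DSPP and MEPE, which lie beside it in the same cluster, held at most 1 read each over all 6 libraries.

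CD44, the receptor for hyaluronan and osteopontin, was the highest member per kb of exon. Its normalized counts were 40224, 46072 and 42580 in the empty vector libraries and 47012, 46586 and 46598 in the HMGB2OE libraries. The groups did not overlap, but they were nearest at 46072 and 46586. The log2 fold change of 0.12 (SE 0.09) did not pass the test (adjusted p from DESeq2 = 0.651).

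**Figure D2:**
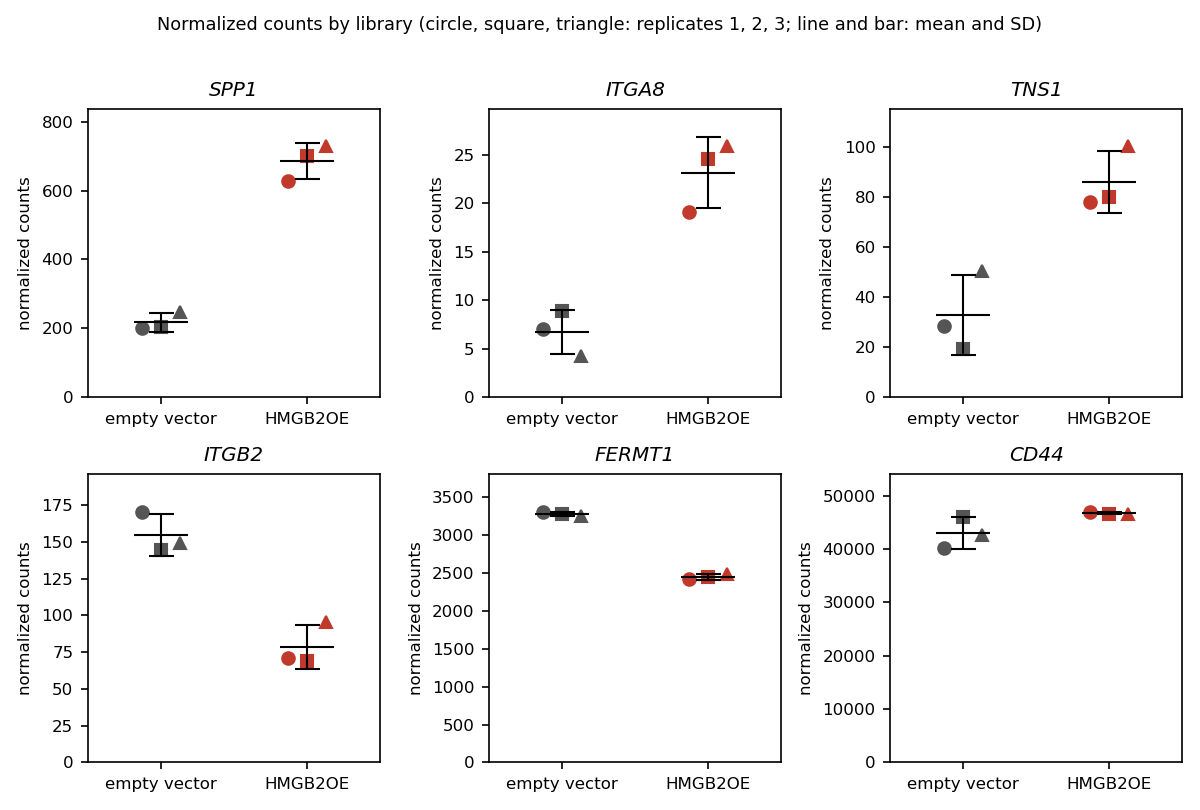
Normalized counts (y axes, from 0) of the 5 called genes and CD44 in each library of empty vector (grey) and HMGB2OE (red) cells. Circles, squares and triangles are replicates 1, 2 and 3, and black lines and bars the mean and SD. In all 6 panels the groups do not overlap, with the widest separation for SPP1 and the narrowest for CD44.

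Of the 3 RGD-binding alpha chains, ITGA8 was called higher and ITGAV and ITGA5 were not called. ITGA8 (ENSG00000077943, chr10:15513954-15719922, minus strand), whose product pairs with the ITGB1 chain, was barely expressed: 7, 10 and 4 reads in the empty vector libraries and 21, 25 and 23 in the HMGB2OE libraries. The corresponding normalized counts were 7.07, 8.86 and 4.29 against 19.1, 24.6 and 25.9, with no overlap. Its log2 fold change was 1.76 (SE 0.57, adjusted p from DESeq2 = 0.0416). That call was lost without the independent filter (0.0723) and without any 1 library (adjusted p between 0.0867 and 0.350). DESeq2 gave it no adjusted p with the replicate block. ITGAV, the alpha chain of the vitronectin receptors, had 4811, 5079 and 5362 normalized counts against 6085, 5748 and 5742 (log2 fold change 0.20, SE 0.10, adjusted p = 0.276). ITGA5, the fibronectin receptor chain, had 11993, 11943 and 8494 against 10144, 10495 and 8236. Replicate 3 was the low one in both, and the groups overlapped (log2 fold change -0.17, SE 0.16).

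The laminin-binding chains carried most of the alpha chain RNA and none was called. ITGA3 alone made up 39.2% ± 3.08 (SD, n = 3) of all alpha chain normalized counts per kb among the 12 members in empty vector cells and 36.6% ± 1.65 in HMGB2OE cells. Its normalized counts were 45268, 43962 and 29660 against 36813, 39743 and 30917, again with replicate 3 low in both (log2 fold change -0.15, SE 0.17). ITGA6 followed at 29.7% ± 2.29 and 32.3% ± 1.59 of the alpha chains, with 20512, 21696 and 18186 normalized counts against 21658, 22068 and 20600 (log2 fold change 0.09, SE 0.11). The column used kept 82.3% of the stranded reads of ITGA6 and 99.99% of those of ITGA3, so the share of ITGA6 may be set low. ITGA7, best known from muscle, was far lower, with means of 734 and 586 (log2 fold change -0.33, SE 0.21). None of these 3 had an unadjusted p under 0.05, and edgeR called none.

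Of the collagen receptor chains, ITGA10 was lower in the blocked fit and the others were not called in either. ITGA10, a chain known from cartilage, had normalized counts of 1666, 1625 and 1275 in empty vector and 1233, 1263 and 1057 in HMGB2OE libraries, so the groups did not overlap. Its log2 fold change of -0.36 (SE 0.15, adjusted p from DESeq2 = 0.155) was called with the replicate block (-0.36, SE 0.10, adjusted p = 0.00451). ITGA1 had a log2 fold change of 0.19 (SE 0.12), ITGA2 of -0.04 (SE 0.14) and ITGA11, at 55.8 to 77.8 normalized counts in the 6 libraries, of 0.22 (SE 0.26). Of these 4 chains, 1 (ITGA10) had an unadjusted p under 0.05, and edgeR called none.

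The ITGA4 and ITGA9 chains form the receptors that bind osteopontin without its RGD motif. ITGA4 had 2606, 2755 and 3050 normalized counts in empty vector libraries and 3464, 3355 and 3427 in HMGB2OE libraries, without overlap. It did not pass on group alone (log2 fold change 0.28, SE 0.10, adjusted p from DESeq2 = 0.0973) and was called higher with the replicate block (0.29, SE 0.09, adjusted p = 0.00934). ITGA9 had means of 1237 and 1354, and its groups overlapped (log2 fold change 0.13, SE 0.16). Neither was called by edgeR.

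Among the 8 beta chains, ITGB2 fell and the other 7 were not called. ITGB2 (ENSG00000160255, chr21:44885953-44931989, minus strand), the beta chain of leukocyte integrins, had 171, 144 and 149 normalized counts in empty vector libraries and 70.9, 68.9 and 95.7 in HMGB2OE libraries. Even the highest HMGB2OE library lay below the lowest empty vector library. The means were 155 ± 14 and 78.5 ± 14.9 (SD, n = 3 each), the fitted level was 1.98 times higher in empty vector cells, and the log2 fold change was -0.98 (SE 0.23, adjusted p from DESeq2 = 0.000781). The call was lost without empty vector replicate 1 (adjusted p = 0.0735), HMGB2OE replicate 1 (0.0545) or HMGB2OE replicate 2 (0.0514). The column used kept 84.5% of the reads counted by strand. The antisense gene ITGB2-AS1 held 28 reads in all. Reads where annotated exons of both genes overlap were dropped, and without strand their source cannot be told. With summed stranded columns, which include such reads, the log2 fold change of ITGB2 was -0.85 (adjusted p from DESeq2 = 0.00862). Of the leukocyte alpha chains that pair with ITGB2, ITGAL had at most 0.886 normalized counts in any library and ITGAM at most 4.04. ITGAX had 102, 72.6 and 70.8 against 87.2, 115 and 87.8 (log2 fold change 0.24, SE 0.26). ITGAD was at 13.5 or below. Of the 6 leukocyte and platelet alpha chains in the lists, DESeq2 tested 4 and edgeR 3. Neither called any, and none of the 4 had an unadjusted p under 0.05.

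None of the abundant beta chains was called. ITGB5, a chain of vitronectin receptors, made up 36.5% ± 2.26 (SD, n = 3) of beta chain normalized counts per kb in empty vector and 37.2% ± 1.09 in HMGB2OE cells, with 15154, 14837 and 14447 normalized counts against 15248, 16969 and 14052 (log2 fold change 0.06, SE 0.11). ITGB1, the partner of most alpha chains named here, had 22468, 22881 and 21840 against 24536, 24587 and 23752. Its groups did not overlap, at a log2 fold change of 0.12 (SE 0.08, adjusted p from DESeq2 = 0.598). ITGB4, the partner of ITGA6 in hemidesmosomes, had 8257, 7814 and 5692 against 6531, 6966 and 6472 (log2 fold change -0.12, SE 0.15). ITGB3, the beta chain known for its rise in invasive melanoma, had means of 6649 and 6662 (log2 fold change 0.00, SE 0.17). It shares 34.8% of its 50-base words with other annotated genes, most with ENSG00000259753, which was listed at 0 reads. ITGB8 had a log2 fold change of -0.07 (SE 0.12). ITGB6 and ITGB7 had at most 76.2 and 105 normalized counts in any library, with log2 fold changes of -0.81 (SE 0.43) and 0.26 (SE 0.29). ITGB7 kept 50.3% of its stranded reads, some of which may belong to the overlapping gene ZNF740.

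**Figure D3:**
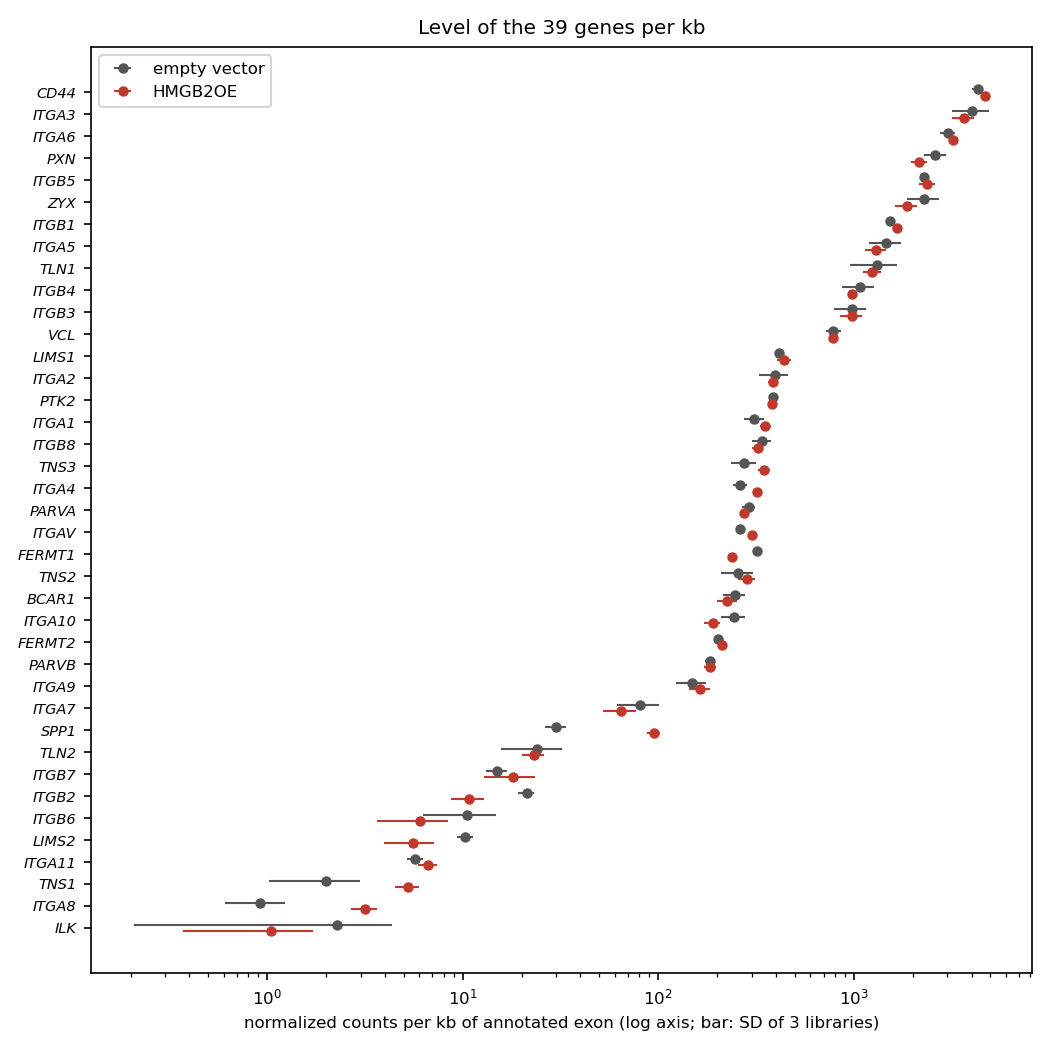
Level of each of the 39 genes (y axis, ordered by the mean of all 6 libraries) as normalized counts per kb of annotated exon (x axis, log scale) in empty vector (grey) and HMGB2OE (red) cells, with bars of 1 SD over 3 libraries. CD44, ITGA3 and ITGA6 are highest, and SPP1 is 30th of 39, at 30.1 in empty vector and 94.5 in HMGB2OE cells.

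The mean levels per kb over the 6 libraries spanned from 2.04 for ITGA8 to 4488 for CD44. This leaves out ILK, which overlaps other genes and kept almost none of its stranded reads. The length used is the union of all annotated exons, retained introns included, which for SPP1 is 7250 bases and sets its level low. Reads lost to overlapping genes were not added back. PXN kept 63.2% of its stranded reads, ZYX 79.2%, ITGA6 82.3% and CD44 89.2%, against 99.99% for ITGA3, so the order can also reflect that loss. Next to CD44 stood ITGA3, at 4043 ± 883 against 4299 ± 295 per kb in empty vector cells, a gap within the spread of ITGA3. In empty vector cells ZYX (2295 ± 434) lay within the SD of PXN (2615 ± 334) and of ITGB5 (2274 ± 54.3). The gap between PXN and ITGB5 was wider than the SD of either. SPP1 lay below ITGA7 in empty vector cells (30.1 ± 3.73 against 80.8 ± 19.6) and above it in HMGB2OE cells (94.5 ± 7.25 against 64.5 ± 12.1).

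Among the proteins that link integrins to actin, FERMT1 fell, TNS1 rose, and talins and vinculin were not called. FERMT1 (ENSG00000101311, chr20:6074845-6123214, minus strand), a kindlin that activates integrins from inside the cell, had 3312, 3276 and 3251 normalized counts in empty vector libraries and 2416, 2448 and 2488 in HMGB2OE libraries. Replicates lay close together in both groups, the third ones included, and the groups lay far apart. The means were 3280 ± 31.0 and 2451 ± 36.2 (SD, n = 3 each), 1.34 times higher in empty vector cells. The log2 fold change was -0.42 (SE 0.09, adjusted p from DESeq2 = 0.00015). The value stayed between -0.43 and -0.41 when 1 library was left out, but the call was lost without empty vector replicate 1 (adjusted p = 0.0529), HMGB2OE replicate 1 (0.0882) or HMGB2OE replicate 2 (0.0544). Another kindlin gene, FERMT2, had means of 1712 and 1790 (log2 fold change 0.06, SE 0.10).

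TNS1 (ENSG00000079308, chr2:217799588-218033982, minus strand), a tensin that joins integrin tails to actin in mature adhesions, had 28, 22 and 47 reads in the empty vector libraries and 86, 81 and 89 in the HMGB2OE libraries. As normalized counts these were 28.3, 19.5 and 50.4 against 78.1, 79.8 and 100.2, with the third replicate high in both groups and no overlap. The log2 fold change was 1.40 (SE 0.36, adjusted p from DESeq2 = 0.00431). edgeR gave an adjusted p of 0.0593, and the call was also lost without empty vector replicate 1 (0.0853), empty vector replicate 2 (0.0923) or HMGB2OE replicate 3 (0.108). TNS3, a more abundant tensin (276 and 347 normalized counts per kb, against 2.00 and 5.26 for TNS1), had 3569, 3907 and 2929 normalized counts against 4546, 4518 and 4007. It did not pass on group alone (log2 fold change 0.33, SE 0.14, adjusted p = 0.173) and was called higher with the replicate block (0.34, SE 0.08, adjusted p = 0.000954). TNS2 was not called (log2 fold change 0.15, SE 0.16).

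TLN1, the talin that binds integrin beta tails, had 14892, 15300 and 8991 normalized counts in empty vector libraries and 12731, 13518 and 10858 in HMGB2OE libraries. Empty vector replicate 3 was the lowest of all 6 by a wide margin, and the log2 fold change of -0.08 (SE 0.19) turned to 0.02 without empty vector replicate 1, 0.05 without empty vector replicate 2 and 0.01 without HMGB2OE replicate 3. TLN2 had means of 389 and 375 (log2 fold change -0.05, SE 0.25). VCL, vinculin, had means of 7859 and 7843 (log2 fold change 0.00, SE 0.10).

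None of the 5 genes of the complex of integrin-linked kinase, PINCH and parvin was called on group alone, nor any of the 4 tested with the block. LIMS2, a PINCH adaptor, came closest, with 98.0, 90.4 and 81.6 normalized counts against 58.1, 55.2 and 32.6. The groups did not overlap, and the log2 fold change was -0.88 (SE 0.29, adjusted p from DESeq2 = 0.0521, and 0.0567 with the block). LIMS1 had means of 3780 and 3989 (log2 fold change 0.08, SE 0.11). It shares 21.3% of its 50-base words with other annotated genes, foremost LIMS3 and LIMS4, both listed at 0 reads. PARVA (-0.07, SE 0.10) and PARVB (-0.01, SE 0.11) were not called. ILK could not be measured: it kept 0.0883% of its stranded reads, at 14.1 normalized counts or below in every library. In the annotation 3 genes overlap it: TAF10, and ENSG00000254400 and ENSG00000254641, both listed at 0 reads. Of the 5, 1 (LIMS2) had an unadjusted p under 0.05, and edgeR called none of the 4 it tested.

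The focal adhesion kinase gene PTK2 was not called, and the LIM adaptors PXN and ZYX were called lower with the replicate block but not on group alone. PTK2 had means of 5283 and 5249 normalized counts (log2 fold change -0.01, SE 0.09). PXN, paxillin, a scaffold bound by that kinase, had 21946, 19616 and 16970 normalized counts against 16367, 17510 and 14444, with the highest HMGB2OE library above the lowest empty vector one. Its log2 fold change was -0.28 (SE 0.13, adjusted p from DESeq2 = 0.295), and -0.27 (SE 0.08, adjusted p = 0.0042) with the block. ZYX, zyxin, found at adhesions under tension, had 8405, 8226 and 5864 against 6500, 6632 and 5165, with the third replicate lowest in each group. Its log2 fold change was -0.30 (SE 0.17, adjusted p = 0.424), and -0.29 (SE 0.08, adjusted p = 0.00219) with the block. PXN kept 63.2% and ZYX 79.2% of their stranded reads, the rest falling where another gene overlaps. BCAR1, a docking protein of the kinase, was not called (log2 fold change -0.12, SE 0.14). Of these 4 genes, 1 (PXN) had an unadjusted p under 0.05, and edgeR called none.

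Several of these calls changed with the way the third replicates were treated, and some with other libraries. In a fit with a term for them, 14 of 38 members were called (36.8%, beside 17.3% of all genes): SPP1, ITGA8, ITGAV, ITGA1, ITGA4, TNS1 and TNS3 were higher, and ITGA7, ITGA10, ITGB2, FERMT1, LIMS2, PXN and ZYX were lower. The term itself, the third replicates against the others, was lower for 18 of the 33 members with an adjusted p (54.5%, beside 20.5% of all genes). DESeq2 called 0 members higher in the third replicates, with 2 at an unadjusted p under 0.05 (TNS1 and LIMS1), and edgeR was not run for that contrast. The 18 included ITGA3, ITGA5, ITGA6, ITGB3, ITGB4, TLN1, PXN and ZYX, which are among the highest members. Without empty vector replicate 3, 16 of 38 members were called, beside 17.8% of all genes. Without empty vector replicate 1, 1 of 38 was, SPP1, beside 1.97% of all genes. Leaving out HMGB2OE replicate 3 did not raise the count: 3 of 39 were called (SPP1, ITGB2 and FERMT1), beside 422 of 18382 genes. What set the third replicates apart was not tested. Their share of multimapped reads was the highest of each group, at 3.96% in empty vector and 10.6% in HMGB2OE cells.

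**Figure D4:**
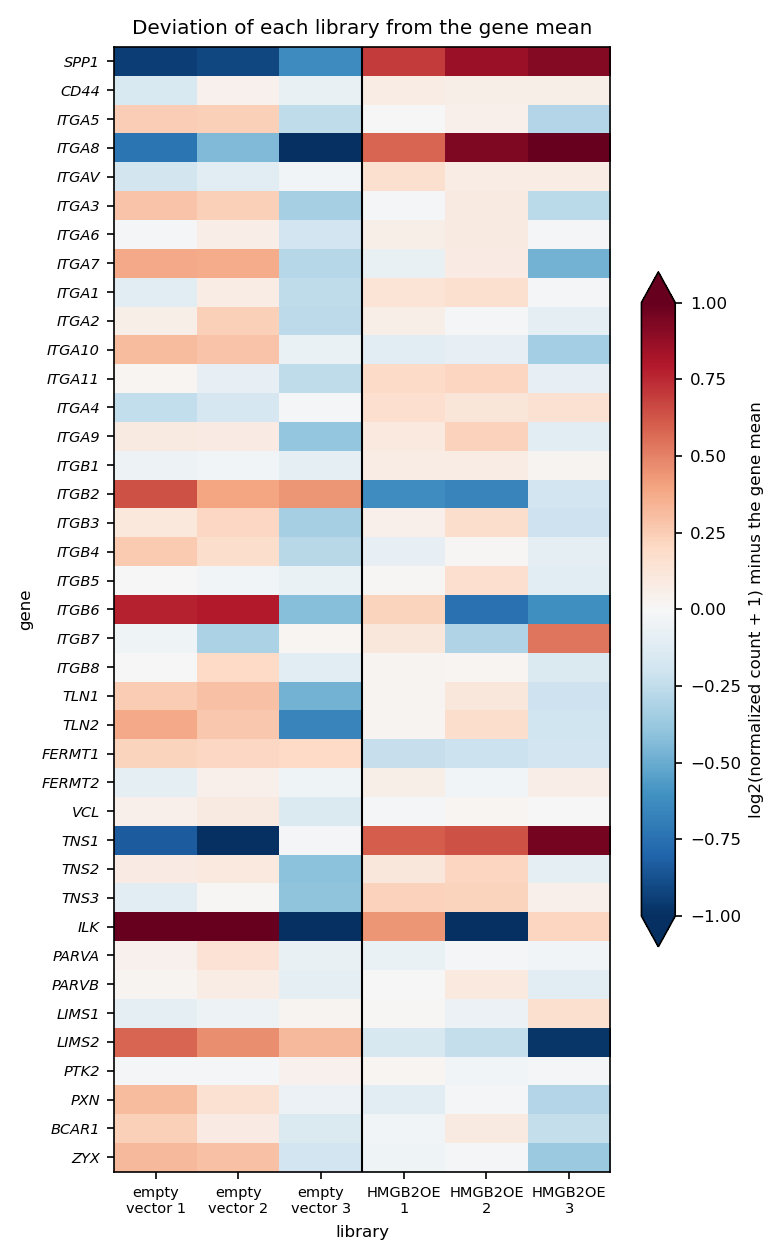
Deviation of each library (x axis) from the gene mean on the scale log2(normalized count + 1), for the 39 genes (y axis). Blue is below and red above the mean, and colours stop at -1 and 1. SPP1, ITGA8 and TNS1 are blue in all or nearly all empty vector libraries and red in HMGB2OE, while empty vector replicate 3 is the lowest of its group for 29 genes.

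Other genes of the pathway were read from 5 lists holding 87 genes, of which 79 were tested. DESeq2 called 2 of them higher and 4 lower (7.59% called, beside 4.94% of all genes tested). All 6 were also called with the replicate block, at adjusted p between 3.35e-33 and 2.08e-05. Both that rose were among the 18 integrin ligands tested (11.1%, beside 2.29% of all genes tested called higher). TGFBI, a matrix protein bound by integrins, had normalized counts of 10667, 10470 and 9089 in empty vector and 17894, 17831 and 17130 in HMGB2OE libraries (log2 fold change 0.81, SE 0.10, adjusted p = 3.29e-12). FN1, fibronectin, had 5128, 5217 and 4765 against 8462, 8551 and 7728 (log2 fold change 0.71, SE 0.10, adjusted p = 1.97e-10). In both genes every HMGB2OE library lay above every empty vector library, and the other 16 ligands tested were not called. With the replicate block, 2 of the 15 ligands with an adjusted p were called (13.3%), close to the 12.5% of all genes in that fit.

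Of 46 other focal adhesion adaptors and kinases tested, FLNA, FHL2 and PDLIM7 were lower (6.52%, beside 2.64% of all genes tested) and none was higher. In this list, 8 had an unadjusted p under 0.05 and edgeR called 2. FLNA, the actin crosslinker filamin A, had 87162, 85173 and 57432 normalized counts against 47416, 49974 and 42664 (log2 fold change -0.71, SE 0.17, adjusted p from DESeq2 = 0.000894). The third replicate was the lowest of its group in both, and the groups still did not overlap. FHL2, a LIM protein that moves between adhesions and the nucleus, had 4163, 4021 and 4161 against 2779, 2551 and 2586 (log2 fold change -0.64, SE 0.09, adjusted p = 2.46e-09). PDLIM7, a PDZ and LIM protein of the actin cytoskeleton, had a log2 fold change of -0.48 (SE 0.16, adjusted p = 0.0402, and 0.121 by edgeR), and its call was lost without any 1 library other than empty vector replicate 3 (adjusted p from 0.0934 to 0.452). With the replicate block, 8 of 45 in this list were called (17.8%, beside 12.5% of all genes), 2 higher and 6 lower. Of 11 tetraspanins and surface partners of integrins, SLC3A2, the heavy chain of amino acid transporters that binds beta integrin tails, was lower, at 43734, 41043 and 37327 against 24849, 23752 and 19964 (log2 fold change -0.83, SE 0.12, adjusted p = 3.7e-09). The list had 1 of 11 called on group alone (9.09%, beside 4.94% of all genes tested) and 3 of 11 with the block (27.3%, beside the same 12.5%).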

How the data were processed

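RNA was selected by its poly(A) tail and sequenced from libraries of a kit that does not mark strand. The authors used FastQC for quality control and Trimmomatic for trimming, aligned to GRCh38 with STAR and deposited raw counts per gene. Base calls were made with bcl2fastq 2.20. The versions of STAR and Trimmomatic and the annotation release were not given in the sources used here. The column for either strand was used. It drops reads that map to several places (2.58% to 10.6% of reads) and reads where genes overlap (10.7% to 11.4%). Symbols and exons came from GENCODE 44, which matched 57532 IDs.

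Counts of all 6 libraries were tested in DESeq2 1.42.0 (R 4.3.3) with default parameters, which the study's methods name, group as the only term and adjustment over all genes. Of 32925 genes with counts, 18836 received an adjusted p. Normalized counts are counts over DESeq2 size factors. Alternatives were edgeR 4.0.16 (quasi-likelihood), TMM factors, a filter of 10 counts in 3 libraries, no independent filter, summed stranded columns, a replicate block, a term for the third replicates, replicates 1 and 2 alone, and leaving out each library. The contrast of the third replicates themselves was added after seeing the data. The labels number replicates 1 to 3 in both groups. Deviations from the group means correlated at 0.18, 0.40 and 0.66 in the same-numbered pairs over 16692 genes. Empty vector replicate 1 correlated more with HMGB2OE replicate 2 (0.50), and HMGB2OE replicate 1 more with empty vector replicate 2 (0.27). Of the same-numbered pairs, only the third replicates were each other's closest match. The block took the numbers as pairs all the same, so calls made only with it depend on a pairing that is not established. Scripts were tested on simulated counts. The members, lists and tests were chosen with earlier results of these data known. Named beyond the members were HMGB2, called genes of the pathway lists and genes within 500 kb of SPP1.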

Additional observations from a re-analysis of the deposited data

Results flagged for a closer look

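Multimapped reads, which enter no gene count, made up 4.89% of reads in HMGB2OE replicate 1 and 10.6% in HMGB2OE replicate 3, above the highest empty vector library (3.96%).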

How the results depend on the processing

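SPP1 was called higher in the main fit and in all 14 alternatives, with log2 fold changes from 1.60 to 1.76. The count of members called higher was 3 in the main fit and 7 with a term for the third replicates, 5 in replicates 1 and 2 alone and 1 to 4 when 1 library was left out. The count called lower was 2, and 5 with the replicate block, 7 with the term, 10 in replicates 1 and 2 alone and 0 to 12 when 1 library was left out. DESeq2 called 0 lower without empty vector replicate 1, HMGB2OE replicate 1 or HMGB2OE replicate 2, with 3, 5 and 5 members lower at an unadjusted p under 0.05. edgeR was not run on those subsets. In the replicate block, which rests on the pairing of same-numbered libraries, ITGA4 and TNS3 (higher) and ITGA10, PXN and ZYX (lower) were called in addition, ITGA8 had no adjusted p and no other call among the members changed. Over all genes, 930 were called in the main fit, 470 by edgeR, 1826 with the block, 2733 with the term, 2621 in replicates 1 and 2 alone and 363 to 2854 when 1 library was left out.

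ITGB5 turned to -0.0174 without HMGB2OE replicate 2 and ranged up to 0.120. TLN1 turned positive without empty vector replicate 1 (0.0235), empty vector replicate 2 (0.0484) or HMGB2OE replicate 3 (0.00585), and ranged down to -0.287. Neither was called in the main fit, and the cause was not tested. ITGA3, ITGA5, ITGB4 and TLN1 were called lower in replicates 1 and 2 alone and without empty vector replicate 3. ITGA8 and TNS1 had few reads, and whether that cost them calls was not tested. The column used dropped nearly all stranded reads listed for ILK, which overlaps TAF10.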
